A study of Mus musculus with 20 samples.

Results

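Expression of 40 cell cycle and DNA replication genes was followed in mouse mammary tumour cells of the Py2T line, which comes from the MMTV-PyMT breast cancer model, and in mesenchymal clones of it. The genes were a list grouped by role and matched by mouse symbol. All 40 were found among the 19311 genes measured in the untransduced lines and among the 24454 genes measured in the shRNA lines, and all 40 passed the filter on low values in both sets.

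A cell that divides licenses its replication origins in G1 by loading the Mcm2 to Mcm7 helicase with Cdc6 and Cdt1, copies its DNA in S phase, and separates the copies in mitosis under cyclin B and Cdk1, the Plk1 and Aurora kinases, kinesin motors and centromere proteins. Transcription follows the same order: E2F factors drive genes of the G1/S step, their repressor member E2f8 closes that wave, and Mybl2 and Foxm1 drive genes of the G2/M step. Because many of these transcripts rise and fall within each cycle, their level in a culture is commonly used as a readout of how many cells are cycling and of where in the cycle they are.

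The study had 10 groups of 2 libraries, prepared from total RNA, and the protocol speaks of 2 independent experiments. The Py2T LT group had been held in 2 ng/ml TGFb1 for more than 10 days. M1, M2 and M3 were each a single stable mesenchymal clone, and the labels do not say whether TGFb1 was in their medium. M3 cells carrying shControl, shTet2 or shMbd3 formed the other 6 groups, each without and with the drug CI994, which inhibits histone deacetylases of class I, at 2 µM for 72 hours. All groups share the PyMT oncogene of the parental tumour, and each shRNA condition rests on 1 clone. The enzyme Tet2 acts on methylated cytosines, and Mbd3 belongs to NuRD, a repressor complex that also contains histone deacetylases. The title of the series names the role of these proteins in epithelial-mesenchymal plasticity and metastasis as its question. Below, values given in pairs are replicate 1 and then replicate 2.

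The untransduced lines were given as RPKM, with a relative depth of 0.865 to 1.06 and no absolute depth, and the M3 shRNA lines as CPM from 16086082 to 24977595 reads. With 2 libraries a group, p-values measure only the spread between libraries of the same group, pooled over the groups of a set. Tet2 was 15.1 and 13.8 CPM in shControl and 8.41 and 7.97 in shTet2 (log2 difference -0.77 ± 0.19 SE, adjusted p = 0.0173). With CI994, Tet2 did not pass between shTet2 and shControl (limma, -0.47 ± 0.19, adjusted p = 0.134). Nor did it pass between untreated shTet2 and shMbd3 (limma, -0.39 ± 0.19, adjusted p = 0.196). Within shControl it was lower with CI994 than without (limma, -0.62 ± 0.19, adjusted p = 0.0337). Mbd3 was 22.1 and 27.7 CPM in shMbd3, but 5.40 and 66.5 in the untreated shControl pair. The library labelled shControl replicate 1 thus lay below both shMbd3 libraries, and Mbd3 did not pass (0.27 ± 0.80, adjusted p = 0.809). Without that library Mbd3 was lower with shMbd3 (-1.41 ± 0.18, adjusted p = 0.00019), and Tet2 was lower with shTet2 (-0.63 ± 0.20, adjusted p = 0.0293). Within CI994 Mbd3 was 53.6 and 67.7 CPM in shControl and 16.6 and 21.9 in shMbd3 (-1.67, adjusted p = 0.191, and 8.03e-06 without that library). That library also stood apart along gene GC content: between the genes lowest and highest in GC content (outer deciles) the median log2 difference between its pair changed by -1.82, against -0.401 to 0.00739 in the other 5 CPM pairs. In the highest decile the median of its pair was -1.10. Mbd3 has 61.6% GC, and its 5.40 and 66.5 CPM lie farther apart than that median. The part of GC content in the Mbd3 values was not tested. By Vim, Zeb1, Cdh2, Cdh1 and Epcam, given below, it lay nearer to shControl replicate 2 than to either knockdown. By Fn1, Krt8 and Krt18 it did not. Whether its label is right was not tested. The fit pools 1 estimate of spread per gene over the 12 libraries, and this library widens it, so CPM counts of the 40 genes and of the wider lists are given with and without it. Krt8 and Krt18, keratins of simple epithelia, were high in all 20 libraries, and Vim and Fn1, mesenchymal markers, were lower in the clones (358 to 589 and 533 to 923 RPKM) than in Py2T LT (1379 to 1397 and 1469 to 1561 RPKM). The mesenchymal factor Zeb1 was also lower in the clones (7.502 to 15.2 RPKM against 27.8 and 29.2), but N-cadherin, Cdh2, was higher (36.4 to 54.9 RPKM against 1.74 and 1.94). The epithelial cadherin Cdh1 was low in all 8 RPKM libraries, at 1.05 to 6.01 RPKM. Epcam, another epithelial marker, was 7.99 and 5.42 RPKM in Py2T LT, 8.23 to 11.9 in M1 and M2 and 32.0 and 32.7 in M3. Markers of blood cells summed to 0.182 to 0.961 RPKM and 0.349 to 6.71 CPM and those of endothelium to 0.0527 to 1.44 RPKM and 0.240 to 1.12 CPM, with Adgre1, a macrophage marker, and Emcn, an endothelial one, at 0 in all libraries.

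Most of these genes are known to carry E2F sites or CHR and CCAAT elements near their start, so the promoter sequences were searched for them. The E2F core was searched in 4 spellings: the classic TTCCCGC, a variant written TTGGCGC, a further variant written TTCGCGC, and last the form TTGCCGC. The CHR was searched as TTTGAA or in the related form TTCGAA, and the CCAAT box by its name alone. Each was searched on both strands and overlaps were allowed, in the stretch from 250 bases before to 50 after each start in RefSeq (GRCm38.p6). A promoter was in the table for 33 of the 40 genes. The E2F core was present in 14 of 33 (42.4%), against 10.9% of the 27025 genes of the table, the CHR in 18 (54.5%, against 21.7%) and the CCAAT box in 27 (81.8%, against 41.1%). The E2F core and the CHR divided by role. Of 11 replication and nucleotide genes 8 held the E2F core and 2 the CHR, while of 11 mitotic kinase, checkpoint, spindle and centromere genes 0 held the E2F core and 9 the CHR. Both were present in the same window in 4 promoters, those of Mki67, Cdk1, E2f8 and Mcm7. A match is a run of letters and no evidence of binding.

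The promoters shown are those of the 6 genes with the largest called differences in the shRNA lines among those with a match, Cenpf, E2f8, Top2a, Cenpe, E2f2 and Cdc6. Top2a is shown over 240 bases because its matches are repeated, 6 CCAAT boxes and 4 CHR matches with no E2F core. For the others, 30 bases around each match that lies before the start are shown, at 1 start a gene. A CHR match of Cenpf and the E2F core of E2f2, which lie after the start, and matches at another start of E2f2 are not shown. Capitals mark the matched letters, and sequences run 5′ to 3′ on the strand of the gene.
Top2a, minus strand, chr11:99024200-99024439: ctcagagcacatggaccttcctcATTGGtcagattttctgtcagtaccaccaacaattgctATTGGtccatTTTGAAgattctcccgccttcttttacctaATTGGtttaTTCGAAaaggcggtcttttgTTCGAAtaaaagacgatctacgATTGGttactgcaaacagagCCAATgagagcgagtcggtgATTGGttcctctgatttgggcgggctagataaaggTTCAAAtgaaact
E2f8, minus strand, chr7:48881691-48881720, E2F core: gcagaggcgcggATTGGCGCgcggggcccc
E2f8, minus strand, chr7:48881599-48881628, CHR: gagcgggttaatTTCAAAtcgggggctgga
Cdc6, plus strand, chr11:98908002-98908031, E2F core: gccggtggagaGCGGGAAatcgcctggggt
Cenpf, minus strand, chr1:189688201-189688230, CCAAT box: cgtccaaaagggCCAATcagaggcggctca
Cenpf, minus strand, chr1:189688140-189688169, CCAAT box: ctctcgccatggCCAATgggcgtggaggct
Cenpe, plus strand, chr3:135212533-135212562, CCAAT box: gtcatgacgctgcgccacCCAATccgctgc
E2f2, plus strand, chr4:136172244-136172273, CCAAT box: tatatatattgtagcagCCAATcgaggcgc
In E2f8 a reversed CCAAT box overlaps the E2F core. The E2F match of E2f8 lies 111 bases before the start and its CHR match 20 bases before it, and the E2F match of Cdc6 lies 138 bases before the start. In E2f8 and Cdc6 the start used lies inside the RefSeq span of the gene, and so do the bases shown.

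Per length, Top2a, the topoisomerase that untangles replicated DNA, was the most abundant of the 40 transcripts in the untransduced lines (201 to 261 RPKM), followed by Mcm6 (92.6 to 211), Ccna2 (120 to 165) and Cdk1 (83.1 to 169). These neighbours overlapped in range. E2f2 was the lowest at 4.65 to 9.10 RPKM and did not overlap Cdc6 (12.03 to 16.5) or Tyms (10.98 to 16.4), the next in order. The 40 genes together made up 0.609% to 0.765% of the RPKM sum and 0.777% to 1.20% of the CPM sum. The highest CPM share was that of the library labelled shControl replicate 1.

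The first question was how the mesenchymal clones differ from TGFb1-treated Py2T cells in these genes. In the mean of the 3 clones, 17 of the 40 genes were higher and 9 lower at adjusted p under 0.05 (limma, adjusted over all 11717 tested genes), where 32.0% of all tested genes were higher and 33.1% lower. The share of higher genes is thus somewhat above the background and that of lower genes below it. Their median log2 difference was 0.17, against -0.01 for all tested genes. By role, 3 of 5 regulators were higher, 6 of 9 licensing and fork genes were higher and 2 lower, 2 of 3 nucleotide synthesis genes were lower, and 3 of 7 cyclins, their kinases and phosphatases were higher and 3 lower. Of the 26 calls 14 held when any 1 of the 8 libraries was left out, among them those of E2f8, E2f2, Cdc25b, Cdc25c, Kif23, Bub1, Mcm6, Mcm3, Mcm5 and Pcna above Py2T LT and of Ccnb2, Cdk1, Cdk2 and Mcm2 below it.

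Among the regulators, E2f8 was 36.7 and 32.9 RPKM in Py2T LT, 67.7 and 83.4 in M1, 67.2 and 73.1 in M2 and 93.8 and 86.5 in M3. All 6 clone libraries lay above both Py2T LT libraries, and the log2 difference of the clone mean was 1.12 ± 0.10 (SE, adjusted p = 1.79e-05). E2f2, an activating E2F, was 5.32 and 4.65 RPKM in Py2T LT and 7.52 to 9.10 in the clones, again without overlap (0.69 ± 0.10, adjusted p = 0.000325). E2f1, the activator held in check by the RB protein before S phase, was 27.9 and 21.5 RPKM against 27.6 to 36.3, with M2 replicate 2 just below the higher Py2T LT library (0.33 ± 0.11, adjusted p = 0.0258, and 0.0854 once each library's trend along GC content was removed). Foxm1 and Mybl2 did not pass, with differences of -0.09 and 0.10.

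In the licensing and fork genes 6 were higher and 2 lower of 9. Mcm6 was 106 and 92.6 RPKM in Py2T LT, 168 and 158 in M1, 167 and 156 in M2 and 211 and 176 in M3, so that every clone library was above both of Py2T LT (0.76 ± 0.10, adjusted p = 0.000158). The subunits of the same helicase differed in direction. Mcm3 (75.4 to 78.0 RPKM in Py2T LT, 104 to 125 in the clones) and Mcm5 (55.2 to 56.8 against 70.1 to 89.8) were higher and did not overlap. Mcm2 was lower, at 95.1 and 83.7 RPKM in Py2T LT and 65.5 to 69.0 in the clones (-0.44 ± 0.08, adjusted p = 0.00107), and Mcm4 was lower by a smaller margin (-0.31 ± 0.09, adjusted p = 0.0178). Pcna, the sliding clamp of DNA polymerases, was 53.3 and 49.6 RPKM in Py2T LT against 67.2 to 88.6 in the clones (0.54 ± 0.08, adjusted p = 0.00034). Cdt1 rose by 0.35 and Mcm7 by 0.21, and Cdc6 was 0.15 higher without passing.

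Of the 3 nucleotide supply genes 2 were lower. Rrm1, the large subunit of ribonucleotide reductase, was 105 and 109 RPKM in Py2T LT and 72.4 to 101 in the clones (-0.32 ± 0.08, adjusted p = 0.00758), and Tyms, thymidylate synthase, was 16.0 and 15.4 against 10.98 to 16.4 (-0.26 ± 0.10, adjusted p = 0.0424, and -0.23 with 0.0559 once the GC trend was removed). The call of Tyms was also lost without either Py2T LT library, M2 replicate 2 or M3 replicate 2. Rrm2, the small subunit of the reductase, did not pass (-0.14). In M2 on its own 0 of these 3 genes passed and in M3 all 3 were lower, with Tyms at -0.44 ± 0.12.

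The cyclins and their partners showed the largest differences in both directions. Cdc25b, a phosphatase that activates Cdk1, was 12.9 and 16.0 RPKM in Py2T LT and 46.1 and 44.7 in M1, 39.9 and 39.5 in M2 and 31.6 and 42.4 in M3. All 6 clone libraries lay well above both Py2T LT libraries, and the log2 difference of 1.43 ± 0.12 (adjusted p = 1.29e-05) was the largest of the 40. Cdc25c, its relative, was 11.6 and 13.9 RPKM against 19.2 to 27.0 (0.79 ± 0.12, adjusted p = 0.000515). Their target Cdk1, in contrast, was 149 and 169 RPKM in Py2T LT and 83.1 to 113 in the clones (-0.73 ± 0.10, adjusted p = 0.000306). Of its cyclin partners, Ccnb2 was lower, 39.5 and 48.1 RPKM against 21.0 to 27.9 (-0.90 ± 0.11, adjusted p = 0.000144), while Ccnb1 was higher, 12.03 and 15.1 against 15.3 to 26.7 (0.42 ± 0.15, adjusted p = 0.0373). Cdk2, the kinase of the G1/S step, was lower at 24.6 to 39.6 RPKM against 44.5 and 45.1 (-0.57 ± 0.08, adjusted p = 0.000262), and Ccna2 did not differ past the threshold (0.02 ± 0.09).

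Of the mitotic kinases and checkpoint genes 2 of 7 were higher and 2 lower. Bub1, a spindle checkpoint kinase, was 17.8 and 24.2 RPKM in Py2T LT and 30.6 to 38.8 in the clones (0.64 ± 0.12, adjusted p = 0.00121), and its partner Bub1b was also higher (0.35). Aurka (-0.47 ± 0.15, adjusted p = 0.0233) and Plk1 (-0.38 ± 0.14, adjusted p = 0.0353) were lower, but their ranges overlapped: Aurka was 64.7 and 84.1 RPKM in Py2T LT and 46.1 to 65.3 in the clones. Among 7 spindle and centromere genes 3 were higher. Kif23, the kinesin of the central spindle, was 37.2 and 47.0 RPKM in Py2T LT and 76.2 to 102 in the clones (1.04 ± 0.12, adjusted p = 6.74e-05), and Kif11 and Kif20a rose by 0.33 each. Cenpf was 20.2 and 32.4 RPKM in Py2T LT, 23.6 and 36.0 in M1, 30.8 and 36.9 in M2 and 41.7 and 55.8 in M3, and passed in M3 (0.88 ± 0.30, adjusted p = 0.0392) but not in M1 or M2. It did not pass the test among clones, and the call in M3 was lost without Py2T LT replicate 1, either M2 library or M3 replicate 2. The chromatin genes Mki67 and Top2a did not pass in any clone.

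**Figure D1:**
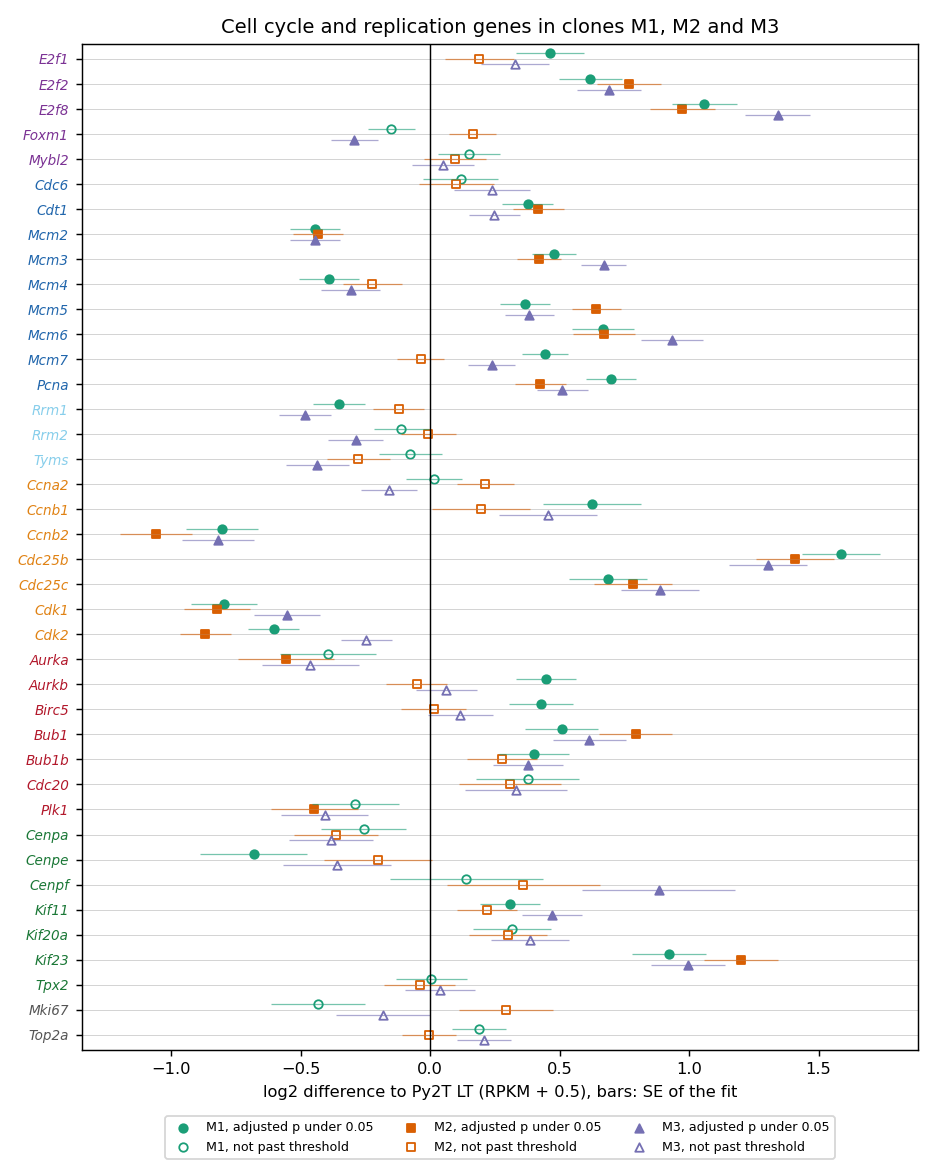
Log2 difference of each of the 40 genes in M1 (circles), M2 (squares) and M3 (triangles) against Py2T LT, with the standard error of the fit as bars and filled symbols at adjusted p under 0.05; gene names are coloured by role. Cdc25b, E2f8 and Kif23 lie farthest to the right in all 3 clones and Ccnb2, Cdk1 and Cdk2 farthest to the left in the clone mean, at 1.43, 1.12 and 1.04 and at -0.90, -0.73 and -0.57.

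Each clone on its own gave 18 higher and 7 lower genes in M1 (30.4% and 30.6% of all tested genes), 11 and 6 in M2 (27.8% and 29.6%) and 14 and 8 in M3 (29.3% and 30.2%). These comparisons share the 2 Py2T LT libraries. The test among the 3 clones does not use those libraries, and 5 of the 40 genes passed it, where 25.7% of all tested genes did. Cdk2 was 32.4 and 28.1 RPKM in M1, 25.0 and 24.6 in M2 and 39.6 and 36.9 in M3, with no overlap between clones (adjusted p = 0.00683). Foxm1 was highest in M2 (83.9 and 80.0 RPKM, against 57.4 to 68.3 in M1 and M3, adjusted p = 0.0167), and Mcm7 was highest in M1 (83.1 and 74.5, against 55.5 to 67.0 elsewhere, adjusted p = 0.0143). Aurkb was also highest in M1, at 86.5 and 70.5 RPKM against 54.2 to 60.8 (adjusted p = 0.0301), and Mki67 was highest in M2, at 103 and 105 against 53.4 to 77.0 (adjusted p = 0.0431). Removal of each library's GC trend ended the calls of Aurkb (adjusted p = 0.0534) and Mki67 (adjusted p = 0.0689). With either M2 library left out 0 of the 40 passed, without M1 replicate 1 or 2 it was 10 or 12, and without M3 replicate 1 or 2 it was 2 or 3.

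Other genes of the same processes were counted from 3 wider lists. In the clone mean 21 of 44 further replication genes were higher and 4 lower, 14 of 48 further mitosis genes were higher and 9 lower, and 4 of 15 RB and DREAM components were higher and 4 lower, beside the 32.0% of all tested genes that were higher and the 33.1% that were lower. In replication Chaf1b (0.93 ± 0.09), a histone chaperone of the fork, rose, and the largest fall was of Orc6 (-0.42 ± 0.13), a subunit of the origin recognition complex. In mitosis Nusap1 (1.23 ± 0.14) and the kinetochore gene Spc24 (1.13 ± 0.14) rose, and Bora, an activator of Aurka, fell (-0.96 ± 0.11). Rbl2, the p130 pocket protein of the DREAM complex, rose (0.85 ± 0.10), and Tfdp1, the partner of E2F proteins on DNA, fell (-0.66 ± 0.07).

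In Py2T LT and in M3 the 2 libraries of the group differed most in the mitotic genes. In Py2T LT replicate 1 was lower than replicate 2 in 14 of 14 mitotic kinase, checkpoint, spindle and centromere genes (median log2 difference -0.37), and M3 showed the same in 14 of 14 (median -0.30). Over the 12 replication and nucleotide genes the medians were 0.03 and 0.12, so the ratio of the summed mitotic to the summed replication RPKM was 0.756 and 1.00 in the Py2T LT pair and 0.728 and 0.992 in M3. This was not shared by the other groups. The mitotic median was -0.01 in M1, with 6 of 14 genes higher in replicate 1, and -0.08 in M2, with 4, while in the 6 CPM groups 5 to 9 of the 14 were higher in replicate 1. The spread inside the Py2T LT and M3 pairs thus reached the size of several differences between groups, such as those of Plk1 and Aurka.

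**Figure D2:**
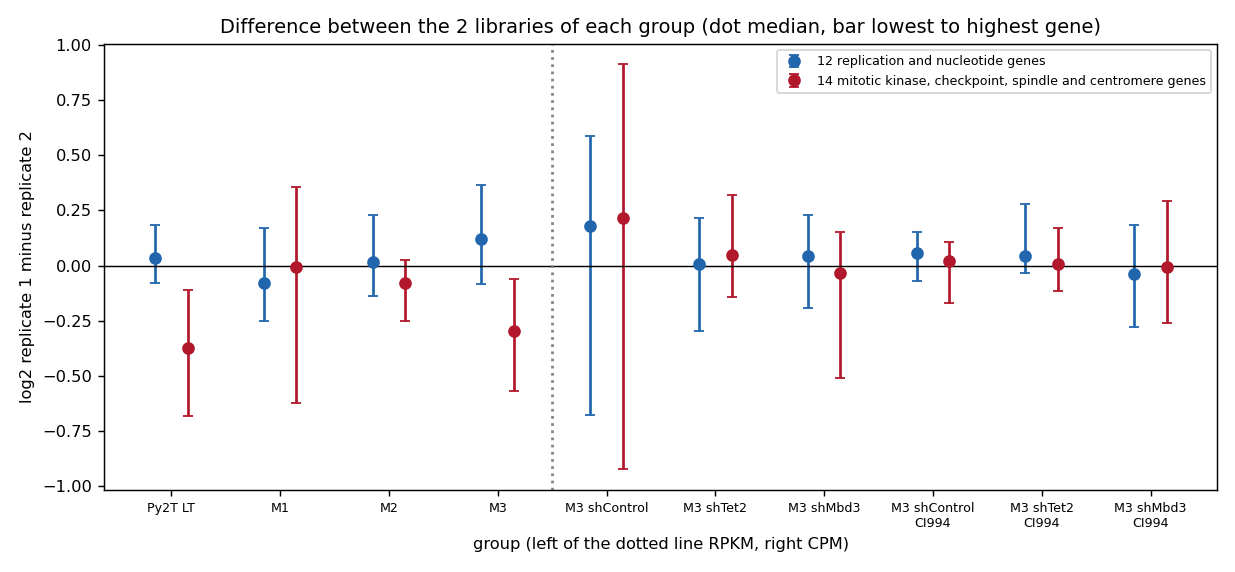
Log2 of replicate 1 minus replicate 2 for 12 replication and nucleotide genes (blue) and 14 mitotic kinase, checkpoint, spindle and centromere genes (red) in each of the 10 groups, as the median (dot) and the lowest and highest gene (bar). In Py2T LT and M3 every mitotic gene lies below 0, with medians of -0.37 and -0.30, and in untreated M3 shControl the bars of both gene groups are the longest.

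Knockdown of Tet2 was compared with shControl in untreated M3 cells to ask how far Tet2 bears on these genes. E2f8, Mcm6, Cdc6 and Top2a were lower with shTet2 and Cdc25b was higher. That is 1 gene higher and 4 lower of the 40, where 10.4% of the 12808 tested genes were higher and 12.9% lower, so the count is below the background in both directions (median log2 difference -0.08, all genes 0.01). Leaving out the library labelled shControl replicate 1 gave 2 higher and 5 lower, against 16.9% and 16.2% of all genes. The count was lower without shTet2 replicate 2. It was higher with the library labelled shControl replicate 1 as the only untreated control (replicate 2 left out). The share of all tested genes in that last fit is not given here.

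E2f8 was 187 and 209 CPM in shControl and 130 and 130 in shTet2 (-0.59 ± 0.10, adjusted p = 0.00316, and -0.58 without the library labelled shControl replicate 1). Mcm6 was 558 and 539 CPM against 322 and 327 (-0.74 ± 0.10, adjusted p = 0.000897, and -0.63 without that library). In both genes the pairs were far apart and close within, and both calls held when any 1 of the 12 libraries was left out. Neither gene passed when the shTet2 and shControl groups were fitted alone, so both calls rely on the spread pooled over all 12 libraries. Cdc6, which loads the helicase, was 87.6 and 89.2 CPM against 59.1 and 51.4 (-0.66 ± 0.14, adjusted p = 0.0083, and -0.59 without that library). Top2a was 2419 and 1706 CPM against 1083 and 949, where the library labelled shControl replicate 1 was by far the highest, so that the difference of -0.99 ± 0.19 (adjusted p = 0.00622) was -0.65 without it (adjusted p = 0.000962). Cdc25b was 81.0 and 127 CPM in shControl and 154 and 168 in shTet2 (0.68 ± 0.16, adjusted p = 0.0157), and 0.44 without that library (adjusted p = 0.013). The calls of Cdc6 and Top2a were lost without shTet2 replicate 2 and that of Cdc25b without either shTet2 library. Of the other licensing genes the members of the helicase apart from Mcm6 did not pass, Mcm2 being 90.4 and 143 CPM against 118 and 114.

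Markers of cell type also differed between the shRNA lines. Of the mesenchymal markers, Vim was 1461 and 1525 CPM in shControl and 322 to 409 in shTet2 and shMbd3, Zeb1 was 57.8 and 52.1 against 17.3 to 21.1, and Fn1 was 2358 and 4100 against 2009 to 2326. Cdh2 was in the other direction, 243 and 248 against 308 to 329. Of the epithelial markers, Cdh1 was 16.3 and 25.7 CPM against 170 to 207 and Epcam was 36.7 and 41.9 against 179 to 252. Krt8 was 324 and 1022 CPM in the controls, against 1143 and 1321 with shTet2 and 692 and 691 with shMbd3. Krt18 was 581 and 1373 CPM in the controls, against 1786 and 2032 with shTet2 and 1271 and 1280 with shMbd3. Beside shControl replicate 2 alone, Cdh1, Epcam, Krt8 and Krt18 were higher in both shTet2 libraries. In both shMbd3 libraries Cdh1 and Epcam were higher than in it and Krt8 and Krt18 lower. With each knockdown Cdh2 was higher than in that library and Vim, Zeb1 and Fn1 were lower. The part of these markers in the cell cycle results was not tested.

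Among the wider lists 0 of 44 replication genes rose and 7 fell with shTet2, where 10.4% of all tested genes were higher and 12.9% lower. The falls were led by the exonuclease Exo1 (-0.76 ± 0.14) and the single-strand binding protein Rpa1 (-0.64 ± 0.12). Of 48 mitosis genes 3 rose, with Cep55 (0.61 ± 0.18) and Ckap2l (0.60 ± 0.13) foremost, and 3 fell, with the kinetochore gene Nuf2 lowest (-1.16 ± 0.25). Of 15 RB and DREAM components 1 rose, E2f4 (0.80 ± 0.23), and 3 fell, with the repressor E2f6 lowest (-1.01 ± 0.15). Without the library labelled shControl replicate 1, 3 replication genes rose and 10 fell, 2 mitosis genes rose and 4 fell, and 1 RB and DREAM component rose and 3 fell, beside the 16.9% and 16.2% of all genes in that fit.

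The shMbd3 line was compared with the same untreated shControl pair, so these differences share their control libraries with those of shTet2. Mybl2, E2f1, E2f2 and Mcm5 were higher with shMbd3, at a GC content of 53.5% to 58.1%. Cenpf, Cenpe, Kif11, Mki67, Ccnb1, Cdc25c and E2f8 were lower, at a GC content of 41.8% to 48.7%. That is 4 genes higher and 7 lower of the 40, where 14.9% of all tested genes were higher and 16.8% lower (median -0.04, all genes -0.01). The share of lower genes was thus close to the background, and Aurka, Aurkb, Bub1, Bub1b, Cdc20, Birc5, Ccnb2, Kif20a, Kif23, Tpx2 and Cenpa did not pass. Without the library labelled shControl replicate 1 it was 3 higher and 7 lower (17.3% and 17.1% of all genes), with Plk1 gained and Mcm5 and Mki67 lost. E2f8 was at the threshold, 187 and 209 CPM against 172 and 168 (-0.30 ± 0.10), and missed it with the GC trend removed (adjusted p = 0.0548). The number of the 40 genes called was lower without either shMbd3 library. With replicate 2 of shControl left out it was higher, and the share of all tested genes in that fit is not given here.

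Mybl2, whose protein joins the MuvB core to switch on mitotic genes, was 28.4 and 47.6 CPM in shControl and 72.4 and 75.0 in shMbd3 (0.91 ± 0.16, adjusted p = 0.00393, and 0.63 without the library labelled shControl replicate 1). It was the 1 call of the 11 that held with any 1 library left out. That call was lost when the shMbd3 and shControl groups were fitted alone. E2f1 was 26.2 and 60.3 CPM against 76.1 and 81.4. The library labelled shControl replicate 1 was again the low one, and the difference of 0.90 ± 0.26 (adjusted p = 0.0283) was 0.38 without it (adjusted p = 0.00841). E2f2 was 15.6 and 21.5 CPM against 28.5 and 33.7 (0.67 ± 0.13, adjusted p = 0.00628), and 0.19 with each library's GC trend removed (adjusted p = 0.302), which ends the call.

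Cenpf, a kinetochore protein of G2 and mitosis, was 618 and 374 CPM in shControl and 157 and 227 in shMbd3. Both shMbd3 libraries were lower, and the log2 difference of -1.43 ± 0.27 (adjusted p = 0.00513) was -0.98 without the library labelled shControl replicate 1 (adjusted p = 0.00241). Cenpe, a centromere kinesin, was 341 and 216 CPM against 114 and 167 (-1.05 ± 0.25, adjusted p = 0.0149, and -0.64 without that library). Kif11, the motor that separates spindle poles, was 524 and 332 CPM against 254 and 265 (-0.76 ± 0.22, adjusted p = 0.0266, and -0.35 without that library). Ccnb1 was 166 and 156 CPM against 112 and 121, with tight pairs (-0.55 ± 0.12, adjusted p = 0.00955), but -0.22 with the GC trend removed (adjusted p = 0.154). Plk1 was 48.4 and 88.7 CPM in shControl and 59.9 and 60.4 in shMbd3. It did not pass (-0.20 ± 0.20), and passed at -0.55 without the library labelled shControl replicate 1 (adjusted p = 0.00323). Of the wider lists 6 of 44 replication genes rose, with Ung (0.87 ± 0.21) first, and 3 fell, with Orc6 lowest (-0.94 ± 0.17). In this fit of all 12 libraries 14.9% of all tested genes were higher and 16.8% lower. Of 48 mitosis genes 1 rose and 8 fell, with Kif18a (-1.07 ± 0.27) and the condensin Smc2 (-1.06 ± 0.27) lowest. Of 15 RB and DREAM components 2 rose, E2f7 (0.65 ± 0.11) and Tfdp1 (0.63 ± 0.15), and 3 fell, among them Lin52 (-1.03 ± 0.17) and Rb1 (-0.77 ± 0.19). Leaving that library out gave 8 replication genes higher and 1 lower, 1 mitosis gene higher and 9 lower, and 3 RB and DREAM components higher and 3 lower, where 17.3% and 17.1% of all genes were.

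Setting the knockdowns against each other needs no shControl library. Tet2 itself did not pass in this comparison (limma, -0.39 ± 0.19, adjusted p = 0.196). E2f2, Mybl2 and Mcm6 were lower with shTet2 than with shMbd3, 0 genes higher and 3 lower of the 40, where 9.31% and 9.38% of all genes were. E2f2 was 15.6 and 16.5 CPM with shTet2 and 28.5 and 33.7 with shMbd3 (-0.84 ± 0.13, adjusted p = 0.00262), Mybl2 was 42.9 and 40.3 against 72.4 and 75.0 (-0.72 ± 0.16, adjusted p = 0.0153), and Mcm6 was 322 and 327 against 480 and 473 (-0.46 ± 0.10, adjusted p = 0.0133). None of these pairs overlapped, and the call of E2f2 held with any 1 library left out. The count was 1 without any 1 of the 4 libraries compared. Without the library labelled shControl replicate 1, which enters this comparison through the shared spread alone, 9 were higher and 12 lower (23.1% and 22.2% of all genes). The higher ones then were Plk1 (83.4 and 85.1 CPM with shTet2, 59.9 and 60.4 with shMbd3), Cdc25b, Cdc25c, Ccnb1, Cenpa, Cenpe, Cenpf, Kif11 and Mki67. The lower ones were E2f1, E2f2, E2f8, Mybl2, Cdc6, Mcm2, Mcm3, Mcm5, Mcm6, Mcm7, Aurkb and Top2a. In the wider lists 12 of 44 replication genes were lower with shTet2 than with shMbd3 and 1 higher, and 5 of 48 mitosis genes were higher and 0 lower, in the fit on all 12 libraries. Of 15 RB and DREAM components 0 were higher and 2 lower. In the fit without that library 2 replication genes were higher and 23 lower, 17 mitosis genes were higher and 6 lower, and 0 RB and DREAM components were higher and 4 lower.

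**Figure D3:**
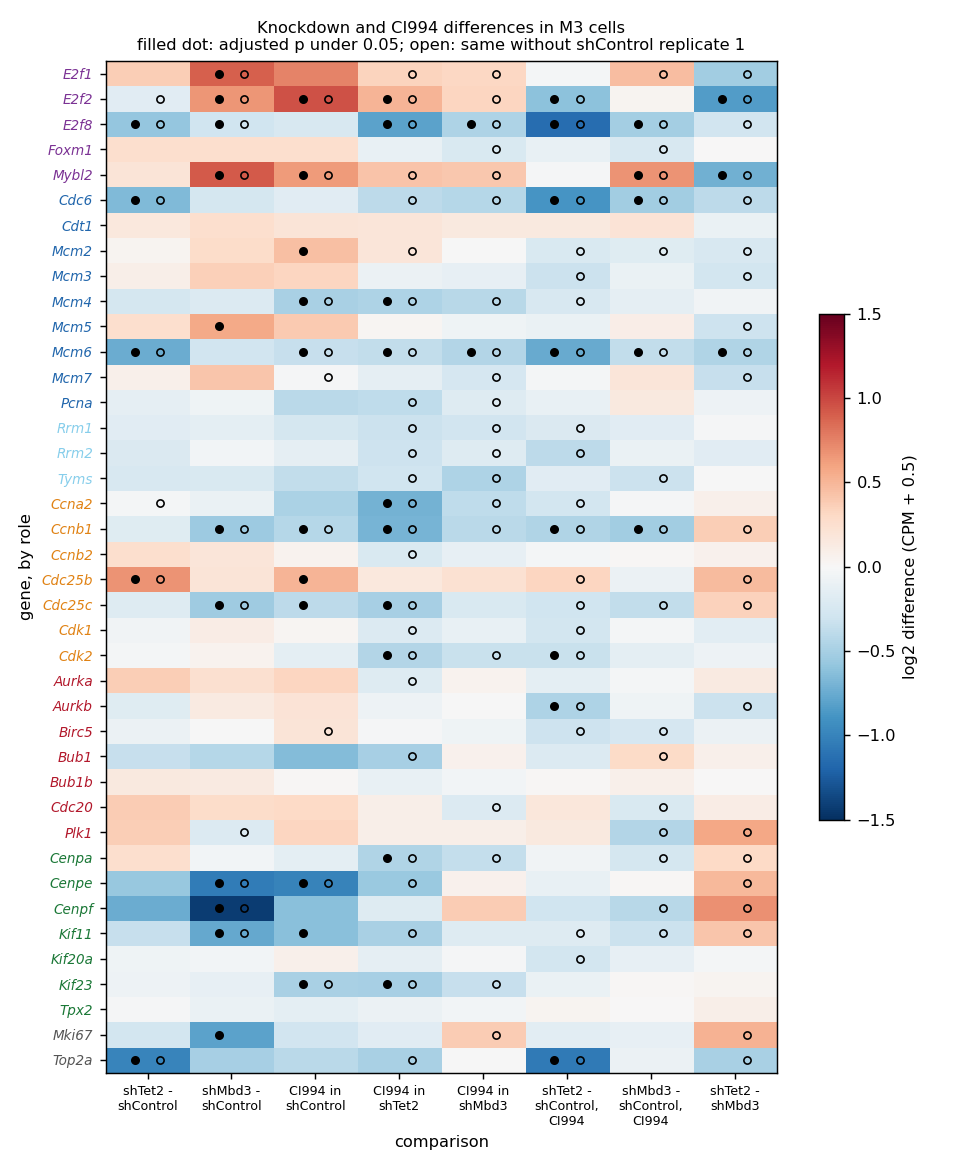
Log2 difference (colour, red higher and blue lower) of the 40 genes, ordered by role, in 8 comparisons of M3 shRNA lines. A filled dot marks adjusted p under 0.05 in the fit of all 12 libraries and an open dot the same without the library labelled shControl replicate 1: E2f8 carries a filled dot in 6 columns and Mcm6 in 7, and the open dots outnumber the filled ones in the columns of CI994 in shTet2 (25 against 10) and in shMbd3 (20 against 2).

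CI994 was then compared with no drug within each shRNA line. In shControl, E2f2, Mybl2, Cdc25b and Mcm2 were higher, at a GC content of 54.2% to 56.5%. Cenpe, Kif11, Mcm4, Kif23, Ccnb1, Cdc25c and Mcm6 were lower, at a GC content of 41.8% to 47.8%. That is 4 and 7 of the 40, where 17.5% and 16.0% of all tested genes were (median -0.14, all genes 0.00). Without the library labelled shControl replicate 1 it was 3 higher and 6 lower (16.0% and 13.8% of all genes), since Cdc25b, Mcm2, Cdc25c and Kif11 no longer passed and Birc5 and Mcm7 did. The count was lower with any 1 library of the shTet2, shMbd3 or CI994-treated shControl groups left out. It was higher without shControl replicate 2, a fit whose share of all tested genes is not given here.

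E2f2 was 15.6 and 21.5 CPM without the drug and 37.3 and 37.7 with it (0.96 ± 0.13, adjusted p = 0.00154). The call held with any 1 library left out, at 0.81 without the library labelled shControl replicate 1, but the difference was 0.38 with the GC trend removed (adjusted p = 0.0608). With the untreated and treated shControl groups fitted alone E2f2 did not pass. Mybl2 was 28.4 and 47.6 CPM against 61.8 and 57.9 (0.64 ± 0.16, adjusted p = 0.0205). It was 0.35 without that library (adjusted p = 0.0136) and 0.12 with the GC trend removed (adjusted p = 0.328). Cenpe was 341 and 216 CPM against 138 and 143 (-1.01 ± 0.25, adjusted p = 0.0189, and -0.59 without that library). Kif23 was 441 and 376 CPM against 311 and 297 (-0.48 ± 0.13, adjusted p = 0.0224), and Mcm6 was 558 and 539 against 458 and 440 (-0.35 ± 0.10, adjusted p = 0.0291). With the GC trend removed Ccnb1 and Mcm4 no longer passed (-0.04, adjusted p = 0.809, and -0.12, adjusted p = 0.2). For Cenpe, Kif23 and Mcm6 both drug-treated libraries lay below both untreated ones. Of the wider lists 4 of 44 replication genes rose, with Gins2 (1.04 ± 0.33) first, and 8 fell. In this fit of all 12 libraries 17.5% of all tested genes were higher and 16.0% lower. In mitosis 3 of 48 rose and 10 fell, with Chek1 (-1.05 ± 0.21) and the condensin Smc4 (-0.96 ± 0.30) lowest, and of 15 RB and DREAM components 1 rose and 7 fell, with Lin9 (-0.84 ± 0.17) lowest. In the fit without the library labelled shControl replicate 1 the counts were 4 and 7 in replication, 2 and 10 in mitosis and 0 and 4 in RB and DREAM components. The 6 blood cell markers summed to 0.349 to 0.982 CPM without the drug and 2.50 to 6.71 with it, over all 3 lines. Lyz2, a myeloid gene, was 2.41 to 4.75 CPM with the drug and 0.0958 to 0.357 without it, whereas Ptprc, carried by white blood cells, was at 0 to 0.378 CPM and Adgre1 at 0. The 4 mesenchymal markers summed to 2734 to 5925 CPM without the drug and 4120 to 8894 with it. Fn1 was most of that sum, at 2358 and 4100 CPM in shControl without the drug and 6300 and 6667 with it, while Cdh2 was 243 and 248 against 209 and 235 and Zeb1 was 57.8 and 52.1 against 50.9 and 54.4. The 4 epithelial markers summed to 958 to 3753 CPM without the drug and 2865 to 4138 with it. In shControl replicate 2 without the drug the epithelial sum was 2462 CPM, against 3521 and 3518 in shControl with CI994. The part of these markers in the results was not tested.

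In shTet2 cells E2f8, Ccna2, Ccnb1, Cdc25c, Kif23, Mcm4, Cdk2, Cenpa and Mcm6 were lower with CI994 and E2f2 was higher, 1 and 9 of the 40, where 12.3% and 11.5% of all genes were higher and lower, so that the lower genes were above the background share and the higher ones below it (median -0.20, all genes -0.01). E2f8 was 130 and 130 CPM without the drug and 76.3 and 81.5 with it (-0.80 ± 0.10, adjusted p = 0.000857), the 1 call that held with any library left out. Ccna2, the cyclin of S phase and G2, was 486 and 471 CPM against 317 and 302 (-0.71 ± 0.16, adjusted p = 0.0146), and Ccnb1 was 135 and 147 against 88.4 and 94.6 (-0.70 ± 0.12, adjusted p = 0.00396). Cdk2 was 67.6 and 68.9 CPM against 53.3 and 52.7 (-0.45 ± 0.10, adjusted p = 0.0121). None of these pairs overlapped. E2f2 was 15.6 and 16.5 CPM against 24.8 and 24.01 (0.51 ± 0.13, adjusted p = 0.0244, and 0.13 with the GC trend removed, adjusted p = 0.501).

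No shControl library is compared here, yet without the one labelled shControl replicate 1 the same differences gave 4 higher and 21 lower genes, against 28.6% and 29.4% of all genes. Among the 21 were then Rrm1, Rrm2 and Tyms (-0.32, -0.31 and -0.30), Pcna (-0.38), Cdc6 (-0.39), Top2a (-0.49), Bub1 (-0.50) and Kif11 (-0.48). Left out 1 at a time, the libraries of the shTet2 groups lowered the count to 1 or 2. In the wider lists 0 genes rose in the fit of all 12 libraries, where 12.3% of all tested genes did. There 7 of 44 replication genes, 14 of 48 mitosis genes and 4 of 15 RB and DREAM components fell, beside 11.5% of all tested genes. These falls were led by Cdc7 (-0.76 ± 0.20), the kinase that fires origins, the checkpoint kinase Chek1 (-0.79 ± 0.21) and E2f5 (-0.92 ± 0.18). With the library labelled shControl replicate 1 left out it was 6 higher and 22 lower in replication, 5 and 27 in mitosis and 0 and 8 in RB and DREAM components.

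In shMbd3 cells E2f8 and Mcm6 were lower with CI994, 0 genes higher and 2 lower of the 40, where 7.34% of all genes were higher and 4.92% lower (median -0.12, all genes -0.01). E2f8 was 172 and 168 CPM without the drug and 117 and 134 with it (-0.46 ± 0.10, adjusted p = 0.0192), and Mcm6 was 480 and 473 against 352 and 358 (-0.44 ± 0.10, adjusted p = 0.0227). When the library labelled shControl replicate 1 was dropped it was 4 higher and 16 lower (21.3% and 20.9% of all genes). The 4 were E2f1 (76.1 and 81.4 against 95.9 and 101 CPM), E2f2, Mybl2 (72.4 and 75.0 against 95.9 and 101 CPM) and Mki67, and the 16 included Ccna2, Ccnb1, Cdk2, Cdc6, Tyms and Kif23. The count was 0 or 1 without any 1 library of the shMbd3 groups. In the wider lists 0 genes rose, while 5 of 44 replication genes, with Pold3 (-0.60 ± 0.14) lowest, 2 of 48 mitosis genes and 0 of 15 RB and DREAM components fell. Without the library named above 1 replication gene rose and 22 fell, 2 mitosis genes rose and 14 fell, and 0 RB and DREAM components rose and 5 fell. Mcm6 was thus lower with CI994 in all 3 lines and E2f8 in the shTet2 and shMbd3 lines. Of these calls only that of E2f8 in shTet2 held with any 1 library left out. Those of Mcm6 in shControl and shTet2 were lost without most of the libraries, left out 1 at a time. E2f8 in shControl was at 187 and 209 against 169 and 178 CPM and not past the threshold (-0.25 ± 0.10, adjusted p = 0.0811).

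**Figure D4:**
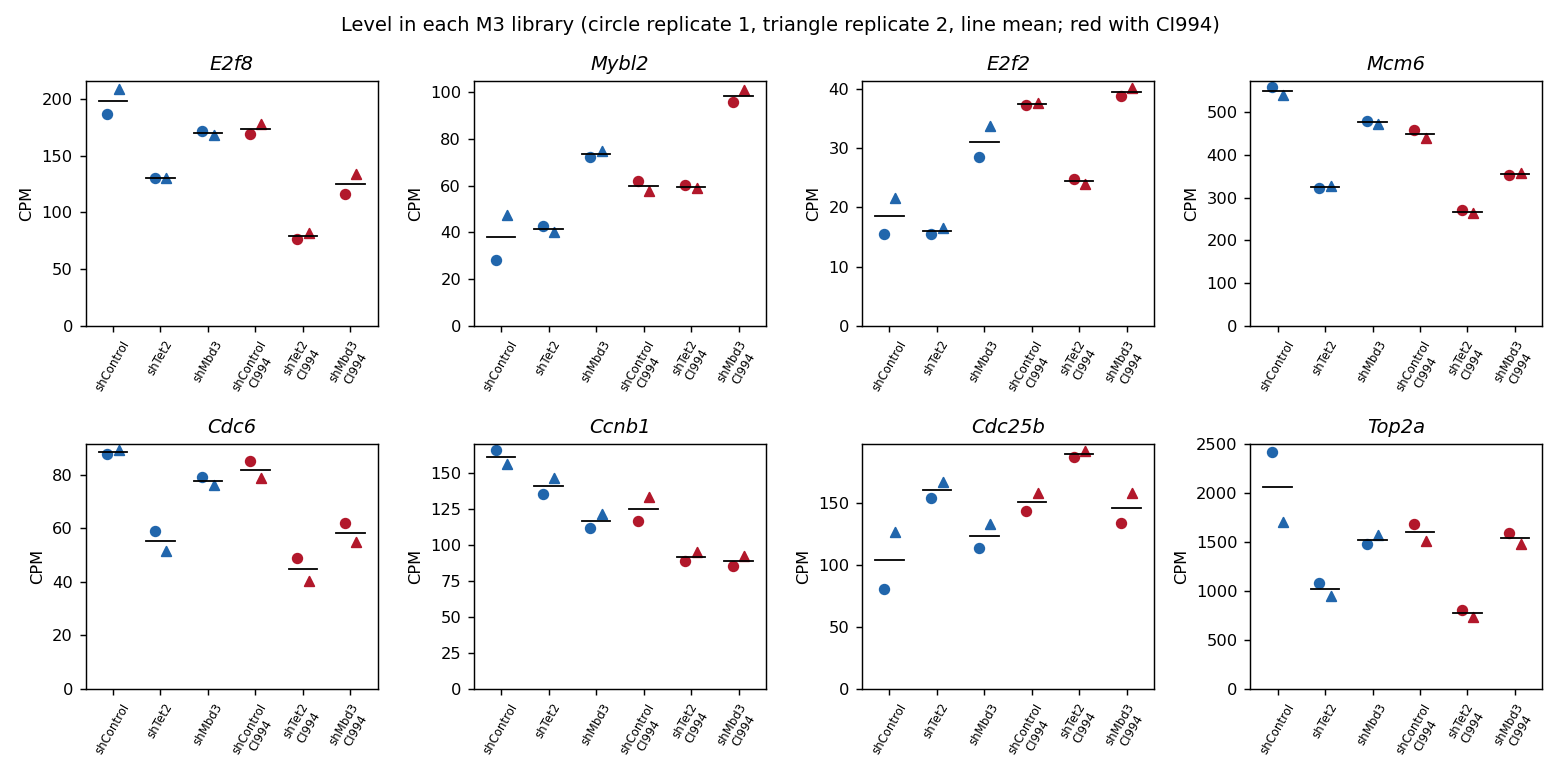
CPM of 8 genes in each of the 12 M3 shRNA libraries, from 0, with circles for replicate 1, triangles for replicate 2, a line at the mean of the pair and red for CI994. E2f8 goes from 187 and 209 in shControl to 76.3 and 81.5 in shTet2 with CI994, Mybl2 is highest in shMbd3 with CI994 at 95.9 and 101, and the 2 untreated shControl libraries lie far apart for Mybl2, Cdc25b and Top2a.

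The knockdowns were also compared within CI994, which leaves the untreated shControl pair out of the difference. Tet2 itself did not pass between shTet2 and shControl there (limma, -0.47 ± 0.19, adjusted p = 0.134). With shTet2, E2f8, Top2a, Cdc6, Mcm6, E2f2, Aurkb, Ccnb1 and Cdk2 were lower, 0 genes higher and 8 lower of the 40, where 6.61% and 8.99% of all genes were (median -0.20, all genes 0.00). E2f8 was 169 and 178 CPM in shControl and 76.3 and 81.5 in shTet2 (-1.14 ± 0.10, adjusted p = 8.6e-05). Top2a was 1687 and 1507 CPM against 800 and 737 (-1.06 ± 0.19, adjusted p = 0.00529), Cdc6 was 85.2 and 78.7 against 49.0 and 40.3 (-0.88 ± 0.14, adjusted p = 0.00233), and Mcm6 was 458 and 440 against 270 and 263 (-0.76 ± 0.10, adjusted p = 0.000897). All 4 of these were also lower with shTet2 without the drug, in other libraries. The calls of E2f8, Mcm6 and Cdc6 held with any 1 library left out. E2f2 was 37.3 and 37.7 CPM against 24.8 and 24.01 (-0.62 ± 0.13, adjusted p = 0.0129). Ccnb1 missed the threshold with the GC trend removed (-0.31, adjusted p = 0.0677). Aurkb, the kinase of the chromosomal passenger complex, was 113 and 111 against 86.5 and 76.9 (-0.46 ± 0.11, adjusted p = 0.0211). With the library labelled shControl replicate 1 left out, 1 was higher and 19 lower (19.3% and 21.4% of all genes), and without any 1 of the 4 libraries compared the count was 3 or 4. Of the wider lists 0 of 44 replication genes rose and 11 fell, again with Exo1 (-0.83 ± 0.14) and Rpa1 (-0.73 ± 0.12) foremost, while of 48 mitosis genes 1 rose and 5 fell and of 15 RB and DREAM components 0 rose and 2 fell. With that library left out it was 3 and 26 in replication, 3 and 17 in mitosis and 0 and 7 in RB and DREAM components.

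With shMbd3 within CI994, Mybl2 was higher and Ccnb1, Cdc6, E2f8 and Mcm6 were lower, 1 and 4 of the 40, where 7.93% and 10.7% of all genes were (median -0.10, all genes 0.00). Mybl2 was 61.8 and 57.9 CPM in shControl and 95.9 and 101 in shMbd3 (0.68 ± 0.16, adjusted p = 0.0192), Ccnb1 was 116 and 133 against 85.0 and 91.9 (-0.53 ± 0.12, adjusted p = 0.0143), and E2f8 was 169 and 178 against 117 and 134 (-0.51 ± 0.10, adjusted p = 0.00707). The pairs did not overlap. Cenpf, which had the largest fall with shMbd3 in untreated cells, was 328 and 319 CPM against 275 and 226 here and did not pass (-0.41 ± 0.27, adjusted p = 0.353), though it did without the library labelled shControl replicate 1 (adjusted p = 0.0485). Cenpe was 138 and 143 against 159 and 133. After dropping the library labelled shControl replicate 1, 3 genes were higher and 14 lower (21.3% and 22.6% of all genes), and without any 1 of the 4 libraries compared the count was 0 to 2. Of 48 mitosis genes in the wider list 1 rose and 3 fell, with Racgap1, the partner of Kif23 in the central spindle, lowest (-0.77 ± 0.09). Of 44 replication genes 1 rose and 1 fell, and of 15 RB and DREAM components 2 rose and 1 fell. With the same library dropped, 5 replication genes rose and 10 fell, 1 mitosis gene rose and 11 fell, and 3 RB and DREAM components rose and 4 fell.

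Whether the drug effect differed between lines was tested directly. For shTet2 against shControl 0 of the 40 genes passed (limma, 0.742% of all genes; 3 at an unadjusted p under 0.05, 0 by edgeR and 1 by DESeq2), and for shMbd3 against shControl 0 passed (0.0703%; 4 unadjusted, 0 by edgeR and 0 by DESeq2). For shMbd3 against shTet2 0 passed (0.0312%; 1 unadjusted, 0 by edgeR and 0 by DESeq2). The lowest adjusted p over the 40 was that of E2f8 for shTet2, an interaction of -0.56 ± 0.14 (adjusted p = 0.127). Without the library labelled shControl replicate 1, E2f8 (-0.56, adjusted p = 0.0241), Ccna2 (-0.52, adjusted p = 0.0184) and Rrm2 (-0.44, adjusted p = 0.037) passed for shTet2, 3 of 40 where 6.4% of all genes did. For shMbd3 0 of 40 passed (0.729% of all genes), and for shMbd3 against shTet2 1 did (4.32%), Bub1 (0.57, adjusted p = 0.0432). With shControl replicate 2 left out instead, more of the 40 genes passed for the interactions of shTet2 and of shMbd3 with CI994. The share of all tested genes in that fit is not given here. The count for these interactions thus differs with the untreated shControl library used.

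The 40 genes are spread over a range of GC content, 40.6% to 58.6% with a median of 48.7%, close to the 49.9% of all tested genes with a value. In the untreated shControl pair all 20 of the genes with lower GC content were higher in the library labelled replicate 1 (median log2 difference 0.50), and 17 of the 20 with higher GC content were lower in it (median -0.48). In the CI994-treated shControl pair the medians were 0.08 and -0.03. The spindle genes Cenpe (341 and 216 CPM) and Kif11 (524 and 332) were on the high side and E2f1 (26.2 and 60.3), Cdc20 (57.3 and 123) and Plk1 (48.4 and 88.7) on the low side. In the fit on all 12 libraries, genes called higher with shMbd3 or with CI994 in shControl had 53.5% GC or more. Those called lower had 48.7% or less. With shTet2 the gene called higher, Cdc25b, had 54.2% GC and those called lower, Top2a, Mcm6, E2f8 and Cdc6, had 42.9% to 48.9%. With each library's GC trend removed the counts were 11 for shTet2, 14 for shMbd3 and 7 for CI994 in shControl. How far the calls rest on GC content was not tested.

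**Figure D5:**
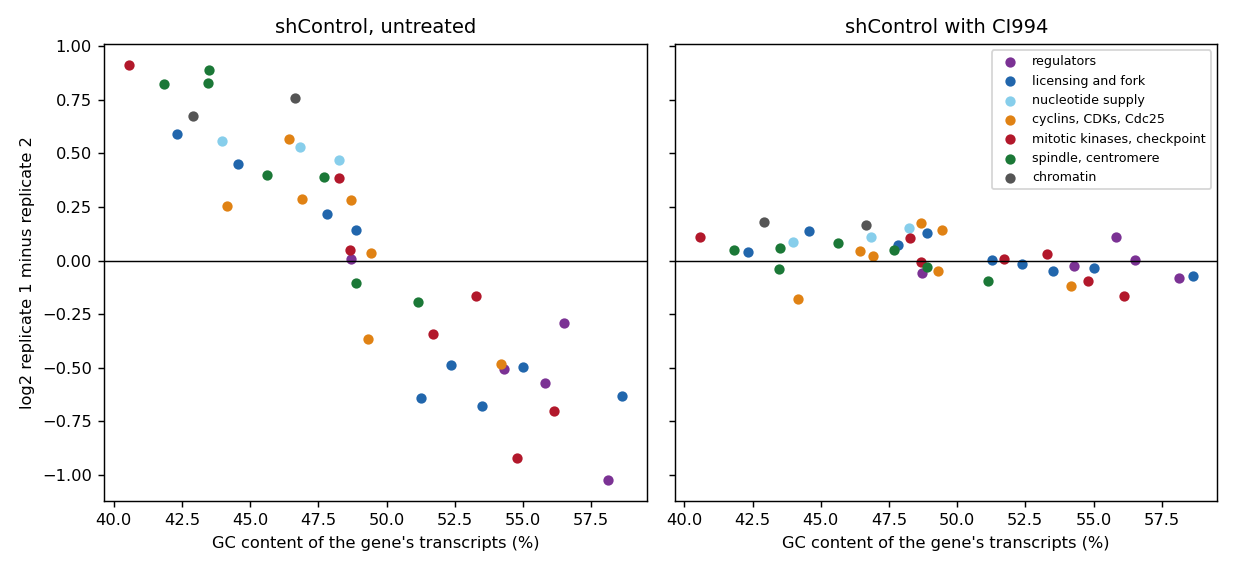
Log2 of replicate 1 minus replicate 2 for the 40 genes against their GC content in percent, in untreated shControl (left) and in shControl with CI994 (right), coloured by role. On the left the genes with lower GC content lie above 0 (median 0.50) and most of those with higher GC content below it (median -0.48), and on the right the medians are 0.08 and -0.03.

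Summed over the 40 genes, shTet2 cells with CI994 had the lowest total, 8000 and 7772 CPM. It lay below 9234 and 8798 in untreated shTet2, 9479 and 9316 in shMbd3 with CI994 and 9999 and 9642 in shControl with CI994. These sums are not scaled to gene length, and the lower Top2a given above is a large part of the gap between shTet2 and shControl. Untreated shMbd3 had 9677 and 10127 CPM, and untreated shControl had 12044 in the library labelled replicate 1 and 10369 in replicate 2. The summed level of the 12 replication and nucleotide genes was 2220 and 2131 CPM in shTet2 with CI994 and 2990 and 2983 in untreated shMbd3, the lowest and highest pairs. The ratio of the 14 mitotic genes to these 12 was 0.945 and 1.02 in untreated shMbd3 and 1.30 and 1.22 in untreated shTet2, without overlap. In bulk RNA fewer cycling cells and less RNA of these genes per cell cannot be told apart.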

How the data were processed

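Total RNA of 20 libraries was sequenced from stranded total RNA libraries (TruSeq), per the labels' protocols. The submitters' processing notes name STAR and the mouse build mm10. The counting program, and whether it used strand, are not given in the sources used here. The authors deposited RPKM values for 8 libraries and CPM values for 12. In the CPM files 100% of values were whole reads within 0.01 reads, so reads were recovered. A value of 0 allows up to 3 reads (0.120 to 0.186 CPM, counting error only). A deposited RPKM file repeats the columns of the other 7 libraries, which were equal, and 0 columns had no sample.

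The 2 sets were fitted apart with limma 3.58.1 (trend, robust) on log2(value / TMM factor + 0.5). TMM factors were 0.978 to 1.02 and 0.913 to 1.04. Tested genes reached 1 RPKM or 0.5 CPM in no fewer than 2 libraries, 11717 and 12808, with group as the only term. P-values were adjusted over all tested genes by Benjamini-Hochberg (threshold 0.05), and "changed", "higher", "lower", "rose" and "fell" in counts refer to it. Log2 differences understate changes of low genes. The members and lists were chosen with earlier results of these data known. All 40 genes may be named, and from each wider list up to 2 rises and 2 falls with the largest differences. A result for a gene of these lists is not reported here. Alternatives were RLE factors, library size only, no filter, pseudocounts of 0.1 and 1, the replicate block, removal of each library's GC trend (content known for 94.4% and 95.6% of tested genes), leaving out each library, the compared groups alone, and edgeR 4.0.16 and DESeq2 1.42.0 on recovered reads. The limma script was tested on simulated data. R 4.3.3 and Python 3.11.15 were used.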

Additional observations from a re-analysis of the deposited data

Results flagged for a closer look

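Cdk2 differed among the 3 clones, at 32.4 and 28.1 RPKM in M1, 25.0 and 24.6 in M2 and 39.6 and 36.9 in M3 (limma, adjusted p = 0.00683), so its difference to Py2T LT was -0.60 in M1, -0.87 in M2 and -0.25 in M3. The test of the difference between clones also marked Foxm1 (adjusted p = 0.0167), with differences to Py2T LT of -0.15, 0.16 and -0.29 in M1, M2 and M3, and Mcm7 (adjusted p = 0.0143), with 0.44, -0.04 and 0.24. Mki67 (adjusted p = 0.0431) was at -0.43, 0.29 and -0.18, and Aurkb (adjusted p = 0.0301) at 0.45, -0.05 and 0.06. These 5 are 12.5% of the 40 genes, below the 25.7% of all tested genes that differed among clones.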

How the results depend on the processing

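The directions of all single-gene calls and the counts of the clone comparisons with Py2T LT kept their size under the settings run, apart from leaving out libraries. The number of the 40 genes past the threshold moved as follows. With the GC trend removed it was 11 for shTet2, 7 for CI994 in shControl, 13 for CI994 in shMbd3, 15 and 14 for shTet2 and shMbd3 within CI994, 2 for the shTet2 interaction and 16 for shTet2 against shMbd3. With the GC trend removed and the replicate block it was 9 among the clones, 13 for shTet2, 19 for shMbd3, 15 for CI994 in shMbd3, 17 and 16 for shTet2 and shMbd3 within CI994, 3 for the shTet2 interaction and 23 for shTet2 against shMbd3. With the replicate block alone it was 8 for CI994 in shMbd3 and 9 for shTet2 against shMbd3, and no other count moved by over 1.5 times. With the fit on the compared groups alone it was 0 for shTet2, shMbd3 and CI994 in shControl, 22 for CI994 in shTet2, 16 for CI994 in shMbd3, 22 and 15 for shTet2 and shMbd3 within CI994, 21 for shTet2 against shMbd3 and 2 for the difference of their drug effects. Without the filter it was 3 among the clones and 7 for CI994 in shControl. By library size only it was 6 for CI994 in shMbd3 and 7 for shTet2 against shMbd3, and by DESeq2 it was 5, 7 and, for the shTet2 interaction, 1. The cause was not tested.

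Leaving out 1 library gave 19 to 26 genes for the clone mean, 18 to 24 for M1, 14 to 18 for M2, 16 to 28 for M3 and 0 to 12 among the clones. In the shRNA lines it gave 2 to 34 for shTet2, 2 to 32 for shMbd3, 1 to 32 for CI994 in shControl, 1 to 25 in shTet2 and 0 to 20 in shMbd3. It gave 3 to 20 and 0 to 17 for shTet2 and shMbd3 within CI994, 0 to 21 and 0 to 23 for the interactions, 1 to 21 for shTet2 against shMbd3 and 0 to 1 for the difference of their drug effects. A group left with 1 library is assumed to vary like the others. Over all single calls, 1052 of the values kept the call when 1 library was left out and 328 lost it, none changing sign.

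Replicate numbers were not used as pairs: the labels do not say that a number marks a shared experiment. Deviations of same-numbered libraries correlated at 0.0941 to 0.524 across genes in the 15 CPM group pairs (14 over 0.1; 0.129 to 0.363 with the GC trend removed, 15 over 0.1) and at -0.122 to 0.128 in the 6 RPKM pairs (1 over 0.1). Depth limits little here, since the lowest CPM value of the 40 genes was 15.6 (E2f2), far above that of 3 reads (at most 0.186).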
